A study of Mus musculus with 4 samples.

Results

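A group of 9 genes for iron storage, uptake, export and sensing was followed in mouse mammary basal cells, which form the outer epithelial layer of the ducts. Out of 34615 gene rows per library, these were Ftl1, Ftl1-ps1, Fth1, Tfrc, Slc11a2, Trf, Slc40a1, Ireb2 and Aco1, each found by its symbol, and all 9 passed the filter on low counts. The other members were taken by name, though with earlier results of these data known. Ftl1-ps1 was selected on its CPM, which was higher in both miR-205-deleted libraries, so its values in that contrast are given as a description with no test. Reads of Ftl1-ps1 may be shared with Ftl1, and Ftl1 is treated in the same way.

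RNA came from transplanted cells that carried the Rosa mTmG reporter on both alleles, which switches from a red to a green membrane protein after Cre recombination. The wild-type group (WT) had normal miR-205 alleles and the knockout group (KO) had floxed miR-205 alleles, spelled WTfl/flmTmGfl/fl cre+ and miR205fl/flmTmGfl/fl cre+ in the labels. Cells of both groups were exposed to a Cre adenovirus, so the controls carry the recombined reporter and the virus treatment as well, and were transplanted into SCID-Beige hosts aged 3 weeks. After 8 weeks, outgrowths were pooled (the number given is 40) and green CD24+ CD49fhigh cells were sorted, giving 2 WT and 2 KO libraries. These hosts lack lymphocytes but keep other cells of their own, and nothing states that the 2 libraries of a genotype came from separate pools, so p-values measure the spread between libraries, which may be technical.

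Gene counts per library ran from 47953972 to 60030932. Values are counts-per-million scaled by the TMM method (CPM), and 3 counts, the most that a count of 0 allows, correspond to 0.0477 to 0.0719 CPM. The sorted cell type carried its markers: 9 of 9 measured basal markers were present in all 4 libraries, with Krt5, the basal keratin, between 1219 and 1773 CPM. These basal markers summed to 9401 to 12050 CPM per library, and 9 luminal markers summed to 917.1 to 1472 CPM. Mir205 had 0 counts in each library and did not check the labels. KO replicate 2 stood apart, with 12679 genes detected against 18027 to 18897 in the other 3. Among the 3540 genes whose WT mean was 1 to 5 CPM, 40.6% were without a count in KO replicate 2, while 0.593% were so in KO replicate 1. The median of all tested genes lay 0.52 below the WT mean in KO replicate 2 and 0.02 above it in KO replicate 1, on the log2 scale. Each comparison below is therefore given for both KO libraries separately, and the part of the low detection in any difference was not tested.

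Cells take up iron bound to the plasma protein transferrin through the transferrin receptor, move it out of endosomes with a divalent metal transporter, and export the surplus through ferroportin. What is not used is stored inside ferritin, a hollow shell built from heavy chains, which oxidise iron, and light chains, which help it to form a mineral core. Iron regulatory proteins bind a short RNA hairpin, the iron-responsive element, when iron is scarce: in a 5′ UTR the binding blocks translation, and in a 3′ UTR it protects the transcript from decay. Ferritin is therefore set largely at translation and the transferrin receptor largely at transcript stability, and only transcripts were measured here.

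The hairpins are shown because, in a gene that holds one, the UTR it lies in goes with the kind of control just described. Transcripts of GENCODE M21 were searched on the sense strand for a C, any 5 bases, the loop CAGTGN and any 5 bases, with both runs of 5 required to pair with each other, G-T pairs allowed. Of 21901 protein-coding genes, 0.731% had such a match in a UTR, and 5 of the 9 iron genes did. Coordinates are GRCm38, a later build than that of the counts, and capitals mark the loop.
Fth1, 5′ UTR, chr19:9982732-9982760, plus strand: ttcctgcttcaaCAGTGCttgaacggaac
Ftl1, 5′ UTR, chr7:45459779-45459807, minus strand: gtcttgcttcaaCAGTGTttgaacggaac
Ftl1-ps1, 5′ UTR, chr13:74406428-74406456, plus strand: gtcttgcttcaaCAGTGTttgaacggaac
Slc40a1, 5′ UTR, chr1:45925465-45925493, minus strand: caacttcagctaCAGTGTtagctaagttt
Tfrc, 3′ UTR, the first of 4 matches, chr16:32631219-32631247, plus strand: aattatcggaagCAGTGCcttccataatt
Ftl1 and Ftl1-ps1 have the same 29 bases here. The search asked for perfect pairing, and no match elsewhere says only that these letters were not found.

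The deleted microRNA has matches in some of the same transcripts. The mature strand miR-205-5p (RefSeq, GRCm38.p6, chr1:193507503-193507524, minus strand) is printed with its seed, bases 2 to 8, in capitals, and beside it the transcript sites that pair with that seed, ATGAAGG, also in capitals.
miR-205-5p: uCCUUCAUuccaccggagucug
Ireb2, 3′ UTR, chr9:54911883-54911909, plus strand: gctcatacaaATGAAGGaaaggaaagg
Slc40a1, 3′ UTR, chr1:45908936-45908962, minus strand: tcctccatgtATGAAGGttatagttag
Tfrc, 3′ UTR, chr16:32632415-32632441, plus strand: caagtcttgaATGAAGGcatgcatttt
These 3 genes held 1 match each in their longest annotated 3′ UTR, Ireb2 followed by the A that makes an 8mer, and the other 6 held none. Among 21707 genes with an annotated 3′ UTR, 10.7% held the 7 bases. A match is a sequence description and not a shown site of binding.

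The 2 light chain rows are nearly the same sequence, which bears on every value given for them. The full-length Ftl1 transcript has 968 bases in 4 exons, and that of Ftl1-ps1 has 938 bases in 1 exon. GENCODE types Ftl1-ps1 as protein-coding, while its symbol names it a pseudogene. The 2 aligned over 910 bases with 4 mismatches, an identity of 99.6%, and the substitutions from Ftl1 to Ftl1-ps1 were A196G, G721A, G757A and A817G, with positions counted from 1 at the 5′ end of the Ftl1 transcript. The 2 in the coding sequence are shown, with the differing base in capitals.
Ftl1, chr7:45458179-45458203, minus strand: ccgcagggtggcGgggccacaacca
Ftl1-ps1, chr13:74407059-74407083, plus strand: ccgcagggtggcAgggccacaacca
Ftl1, chr7:45458143-45458167, minus strand: cgcgccccagggGtctctgggcgag
Ftl1-ps1, chr13:74407095-74407119, plus strand: cgcgccccagggAtctctgggcgag
Of all windows of 50 bases in this Ftl1 transcript, 73.4% occur unchanged in that of Ftl1-ps1, and of windows of 100 bases 59.3% do. Fth1 shares 0% of its windows of either length with Ftl1-ps1. Read length and the handling of reads that fit several places were not stated by the labels or processing notes, and the summary row for such reads held 0 in every library. Counts were therefore made per row, but how much of each row came from the other gene cannot be told apart.

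**Figure D1:**
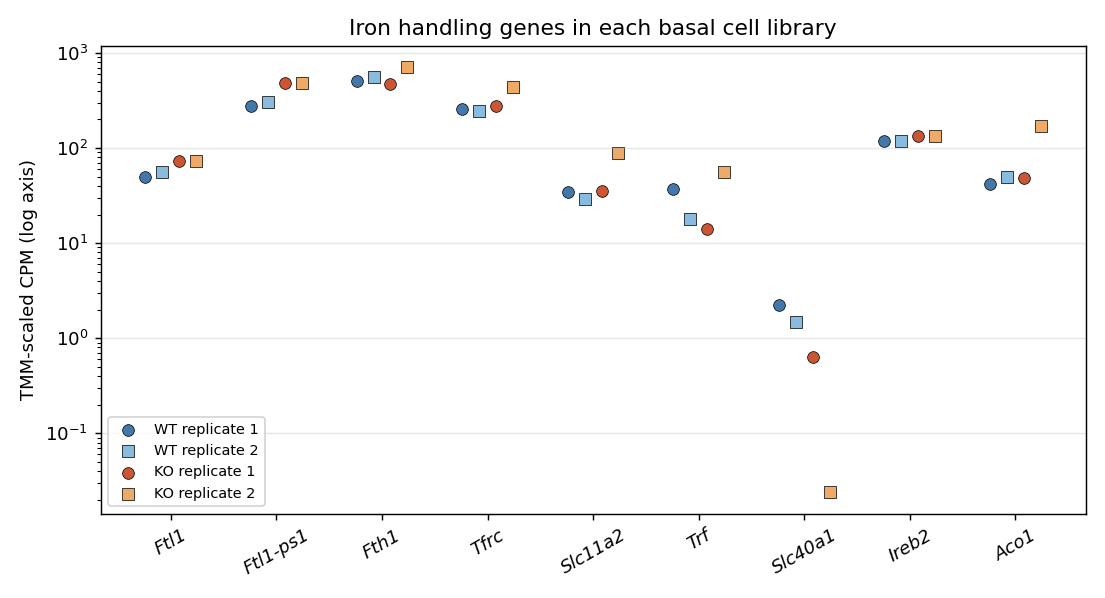
TMM-scaled CPM (log axis) of the 9 iron genes in the 2 WT libraries (blue) and the 2 KO libraries (orange), with circles for replicate 1 and squares for replicate 2. Both KO libraries stood above both WT libraries for Ftl1, Tfrc, Slc11a2, Ireb2 and Ftl1-ps1, the last chosen for this pattern. For Slc11a2 and Aco1 the square of KO replicate 2 alone was far from the rest.

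In the test over all 15364 genes with the edgeR quasi-likelihood method, 0 of the 9 iron genes were called (adjusted p under 0.05 by Benjamini-Hochberg), and the share called among all genes was 0%. The smallest adjusted p of any gene was 0.999. Before adjustment, 147 genes (0.957%) had a p under 0.05, and DESeq2 called 4 genes and limma voom 0, none of them iron genes. Both KO libraries lay above both WT libraries in 5 of the 9, against 13.2% of all tested genes, and below them in 1 of 9, against 19.2%. In all, 6 of the 9 did not overlap between genotypes, against 32.4% of all tested genes. Ftl1-ps1 entered by that very pattern and Ftl1 may share its reads. Without this pair the counts were 3 of 7 above and 1 of 7 below. The median log2 fold change of the 9 genes was 0.47 and that of the 7 without the pair was 0.33, against -0.14 for all tested genes. In a separate fit of genes at a mean CPM of 5 or more, where Slc40a1 was not tested, the median of all tested genes was -0.01. Relative to the WT mean, the median of the 7 was 0.10 for KO replicate 1 and 0.79 for KO replicate 2.

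Ferritin light chain transcripts stood higher in both KO libraries, while the heavy chain did not part the genotypes. With TMM scaling, the 2 KO libraries were nearly equal for Ftl1-ps1 and Ftl1. That equality rests on TMM factors of 1.05 for KO replicate 1 and 0.87 for KO replicate 2. Under total count scaling the log2 fold change was 0.61 for Ftl1-ps1 and 0.35 for Ftl1. Ftl1-ps1 (ENSMUSG00000062382), on chromosome 13, had 278.4 and 301.7 CPM in the WT libraries and 482.2 and 487.7 in those of KO, from 15685 to 30304 counts per library. The groups did not overlap, and the KO libraries were 1.66 and 1.68 times the WT mean. The fitted log2 fold change, given as a description because these values chose the gene, was 0.74.

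Ftl1 (ENSMUSG00000050708), the multi-exon light chain gene on chromosome 7, had 50.1 and 55.7 CPM in the WT libraries and 73.5 and 73.2 in those of KO. Again, with TMM scaling, the libraries of a genotype lay close together and the genotypes did not overlap. KO was at 1.39 times WT, with a log2 fold change of 0.47. A further light chain pseudogene row, Ftl2-ps (ENSMUSG00000082062), which is no member and lies within the gene Grik3 on the same strand, had 16.5 and 17.1 CPM in the WT libraries and 31.2 and 27.5 in those of KO. Its sequence is 98.7% identical to Ftl1 over 552 bases, so the 3 rows are not independent readings.

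Summed, the 3 light chain rows held 344.9 and 374.5 CPM in the WT libraries and 586.9 and 588.3 in those of KO. The mean of KO was 1.63 times that of WT, and summing the rows before the fit gave a log2 fold change of 0.71. Most of the reads fell on the single-exon row. Ftl1-ps1 took 80.7% (95% exact binomial interval 80.14 to 81.25) and 80.6% (80.03 to 81.08) of these counts in WT, and 82.2% (81.76 to 82.54) and 82.9% (82.42 to 83.36) in KO. The share of Ftl1 was 14.5% and 14.9% in WT and 12.5% and 12.4% in KO. The split between rows thus moved by about 2 percentage points while the sum in KO was 1.63 times that in WT, and the intervals cover counting error only.

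Fth1 (ENSMUSG00000024661), the heavy chain gene on chromosome 19, had 508.5 and 564.9 CPM in the WT libraries and 466.1 and 708.8 in those of KO. KO replicate 1 was the lowest library and KO replicate 2 the highest, so the genotypes overlapped. The log2 fold change was 0.13 ± 0.26 (edgeR adjusted p of 0.999), and its sign turned under upper quartile scaling (-0.0035), under total count scaling (-0.024) and without KO replicate 2 (-0.20). The count ratio of the 3 light chain rows to Fth1, which needs no scaling between libraries, was 0.678 and 0.663 in WT. It was 1.26 for KO replicate 1 and 0.83 for KO replicate 2. Both KO ratios were above both WT ratios, and the gap between the KO ratios was wider than that between KO replicate 2 and WT. Because the light chain rows entered by their KO values, no test of this ratio is given, and 2 libraries against 2 could not reach an exact permutation p below 0.333.

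**Figure D2:**
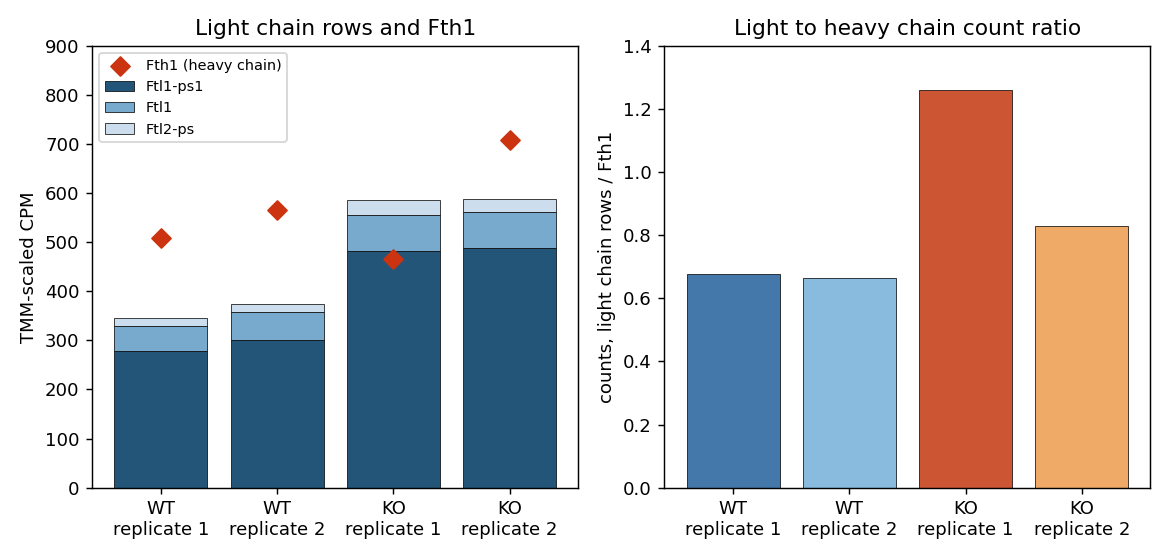
Left, TMM-scaled CPM of the 3 ferritin light chain rows as stacked bars, with Fth1 as red diamonds, in each library; right, the ratio of summed light chain counts to Fth1 counts. The stacks reach 344.9 and 374.5 CPM in the WT libraries and 586.9 and 588.3 in those of KO, and the ratio is highest in KO replicate 1 at 1.26.

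Of the uptake genes, Tfrc and Slc11a2 stood higher in both KO libraries, but nearly all of the difference came from KO replicate 2. Tfrc (ENSMUSG00000022797) encodes the transferrin receptor and had 257.6 and 242.6 CPM in the WT libraries and 273.8 and 433.6 in those of KO. KO replicate 1 was 1.09 times the WT mean and KO replicate 2 was 1.73 times it. The log2 fold change of 0.50 ± 0.28 did not pass (edgeR adjusted p of 0.999), and it was 0.13 without KO replicate 2. Without KO replicate 1 it was 0.79 with an adjusted p of 0.00958, in a fit with that single KO library in which 5724 of 16392 genes (34.9%) were called.

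Slc11a2 (ENSMUSG00000023030), the divalent metal transporter DMT1 that carries iron out of endosomes, had 34.64 and 29 CPM in the WT libraries and 35.4 and 88.4 in those of KO. KO replicate 1 lay just above the higher WT library, and KO replicate 2 was 2.78 times the WT mean. The log2 fold change was 0.96 ± 0.53 (edgeR adjusted p of 0.999), falling to 0.16 without KO replicate 2 and reaching 1.47 without KO replicate 1 (adjusted p of 0.00773). The antisense neighbour Gm5475 had 0 to 43 counts, against 1725 or more for Slc11a2, and whether counting used strand was not stated.

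Trf (ENSMUSG00000032554) encodes transferrin, the iron carrier of plasma and milk, and varied widely within both genotypes. It had 37.6 and 17.8 CPM in the WT libraries and 14.0 and 55.7 in those of KO, so that the KO libraries were the lowest and the highest of the 4. The log2 fold change was 0.33 ± 0.80 (edgeR adjusted p of 0.999), and its sign turned with limma voom (-0.024), without WT replicate 2 (-0.11) and without KO replicate 2 (-0.98).

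Slc40a1 (ENSMUSG00000025993), which encodes ferroportin, the cell's iron exporter, was the least abundant of the 9 per length and lower in both KO libraries, with only KO replicate 2 under a floor of 3 counts. It gave 126 and 88 counts in WT against 40 in KO replicate 1 and a single count (1) in KO replicate 2, or 2.24, 1.48, 0.636 and 0.024 CPM. The genotypes did not overlap. KO replicate 1 was 0.345 times the level of the WT libraries pooled (95% interval for counting error 0.239 to 0.485). KO replicate 2 was 0.013 times that pooled level (0.000327 to 0.0731). In KO replicate 2, 46.5% of all genes at 1 to 5 CPM in WT were under 0.05 CPM, so a value of this size was common there. The log2 fold change of -2.48 ± 2.03 did not pass (edgeR adjusted p of 0.999), and it was -1.54 without KO replicate 2 and -6.14 without KO replicate 1.

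The iron sensors differed from each other in how they varied. Ireb2 (ENSMUSG00000032293) encodes IRP2, the iron regulatory protein that is degraded when iron is plentiful, and had 119.8 and 118.2 CPM in the WT libraries and 135.1 and 133.1 in those of KO. With TMM scaling the genotypes did not overlap, yet the KO mean was only 1.13 times the WT mean. The log2 fold change was 0.17 ± 0.23 (edgeR adjusted p of 0.999) and stayed between 0.16 and 0.19 with any 1 library left out. It fell to 0.06 under upper quartile scaling and 0.05 under total count scaling, and the lack of overlap also rests on the scaling. Ireb2, Tfrc and Slc40a1 each hold a match to miR-205-5p printed above. With TMM scaling, Ireb2 (log2 fold change 0.17) and Tfrc (0.50) stood higher in both KO libraries. Slc40a1 (-2.48) was lower in both, with a single count (1) in KO replicate 2. Any effect of these matches was not tested.

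Aco1 (ENSMUSG00000028405) encodes IRP1, which is an aconitase when it holds an iron-sulfur cluster and binds RNA when it does not. It had 41.5 and 49.7 CPM in the WT libraries and 48.7 and 169.4 in those of KO. KO replicate 1 fell between the WT libraries and KO replicate 2 was 3.72 times the WT mean. The log2 fold change of 1.26 ± 0.63 (edgeR adjusted p of 0.999) was 0.10 without KO replicate 2 and 1.89 without KO replicate 1 (adjusted p of 0.00293). The CPM ratio of Ireb2 to Aco1 was 2.89 and 2.38 in WT and 2.77 in KO replicate 1, and 0.786 in KO replicate 2 alone.

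**Figure D3:**
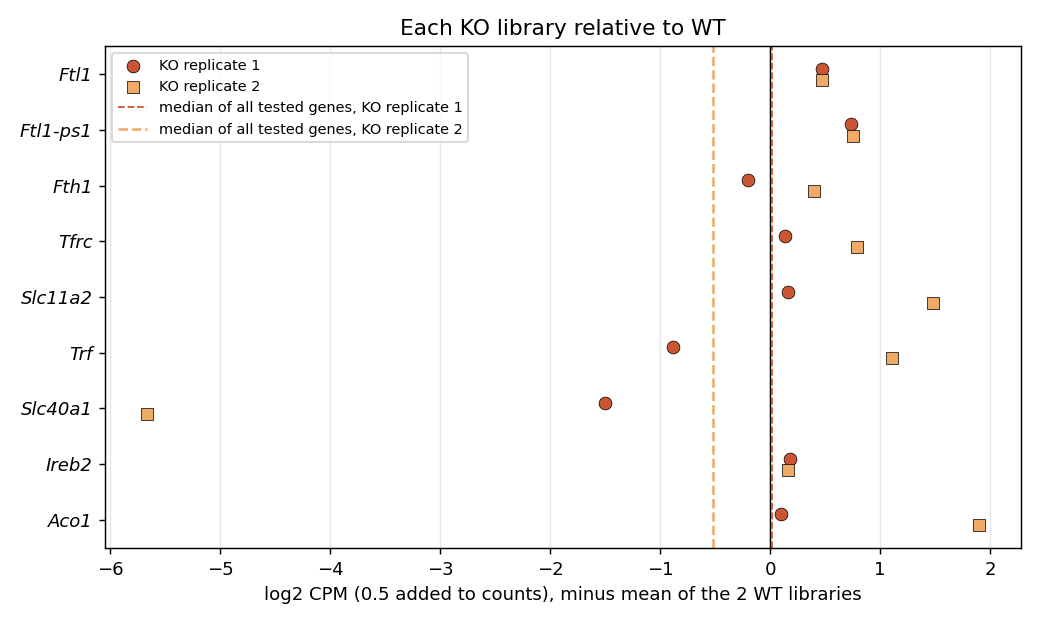
Log2 CPM of each KO library minus the mean of the WT libraries, with 0.5 added to counts, for the 9 iron genes; dashed lines mark the median of all tested genes in the same library. With TMM scaling, on which their closeness rests, the KO libraries nearly coincide for Ftl1, Ftl1-ps1 and Ireb2. They part by more than 1 for Slc11a2, Trf, Slc40a1 and Aco1, with Slc40a1 lowest at -5.67 in KO replicate 2.

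Levels can be compared between genes only per length, and CPM per kilobase of the longest coding transcript was used for that. Over the 4 libraries, Ftl1-ps1 had a mean of 413.1 and Fth1 one of 376.2 CPM per kilobase, with overlapping libraries. On the shorter Fth1 transcript of 929 bases, a length added after seeing the data, the mean of Fth1 was 605.0, so the order of this pair turns with the transcript chosen, and the levels of both light chain rows rest on how shared reads were split between them. Ftl1 at 65.2 and Tfrc at 61.7 came next and overlapped each other, well below the leading pair. Ireb2 (21.9), Aco1 (20.2), Trf (12.2) and Slc11a2 (10.6) followed, and each overlapped its neighbour in this order. Slc40a1 was last at 0.325, below Slc11a2 in every library.

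**Figure D4:**
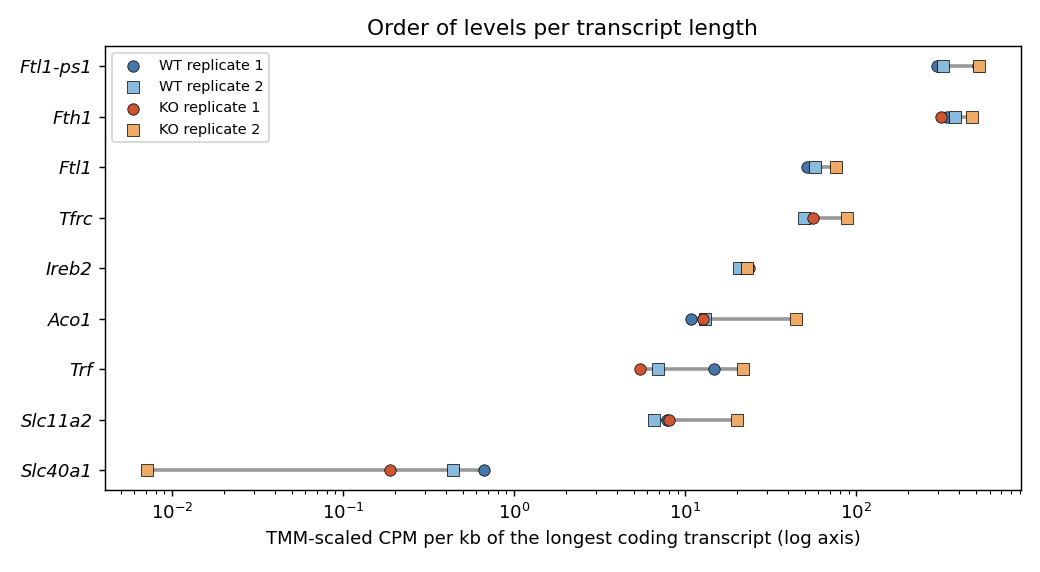
TMM-scaled CPM per kilobase of the longest coding transcript (log axis) for the 9 iron genes in order of their mean, with 1 point per library and a grey line from lowest to highest. Ftl1-ps1 and Fth1 lie above 290 in all libraries, and Slc40a1 lies below 1 in all.

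The wider iron pathway was read from 6 lists with 67 entries, of which 66 had a row and 62 were tested. None of the 62 was called (0%), 26 fold changes were positive and 36 negative (a positive one was found for 42.8% of all tested genes), and the median log2 fold change was -0.18, against -0.14 for all tested genes. Both KO libraries lay above WT in 9 of them (14.5%, against 13.2% of all genes) and below in 15 (24.2%, against 19.2%).

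Uptake and transport genes had 4 positive and 9 negative fold changes of 13 tested, against the 42.8% positive among all genes, and a median of -0.56, which was -0.26 for KO replicate 1 and -1.24 for KO replicate 2. Lcn2, a secreted protein that binds iron-carrying siderophores, went the other way, with 926 and 1102 CPM in the WT libraries and 1255 and 1457 in those of KO. Slc39a14, a zinc and iron importer, had 175.9 and 227.9 CPM in the WT libraries and 149.1 and 253.4 in those of KO, with overlapping genotypes. Export and hepcidin genes were negative in 5 of 5 tested, where most tested genes were negative too. Their most abundant members were the ferroxidases that work beside ferroportin. Cp had 270.4 and 203.3 CPM in the WT libraries and 217.4 and 210.3 in those of KO, and Heph had 27.2 and 20.9 CPM in the WT libraries and 19.2 and 18.8 in those of KO. The other 3 were below 12 CPM in every library, where KO replicate 2 lost many genes.

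Genes that load or break down ferritin were 2 positive and 2 negative of 4 tested, with a median of 0.02. Ncoa4, the receptor that delivers ferritin to autophagosomes, had 322.3 and 295.2 CPM in the WT libraries, with 372.9 for KO replicate 1 and 171.5 for KO replicate 2. Pcbp2, an iron chaperone, had 165.9 and 199.1 CPM in the WT libraries and 181.1 and 167.2 in those of KO. Both overlapped between genotypes.

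Genes of iron-sulfur cluster assembly were 6 positive and 7 negative of 13, with a median of -0.24 that was 0.14 for KO replicate 1 and -1.0 for KO replicate 2. Hspa9, the mitochondrial chaperone of this process, had 549.1 and 501 CPM in the WT libraries and 530.5 and 675.1 in those of KO.

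Heme genes were 6 positive and 10 negative of 16, with a median of -0.38, or 0.18 for KO replicate 1 and -2.35 for KO replicate 2. Hmox1, the heme oxygenase that frees iron from heme, had 180.1 and 326 CPM in the WT libraries and 385.6 and 443.3 in those of KO (log2 fold change 0.71 ± 0.33), without overlap but with WT libraries far apart. Flvcr1, a heme exporter, had 77.5 and 63.3 CPM in the WT libraries and 64.8 and 60.1 in those of KO.

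Antioxidant and ferroptosis genes, several of which share with ferritin the control by the transcription factor NRF2, were positive in 8 of 11, against 42.8% of all tested genes, with a median of 0.44. That median was 0.08 for KO replicate 1 and 0.65 for KO replicate 2. Txnrd1, thioredoxin reductase, had 213.8 and 280.9 CPM in the WT libraries and 391.9 and 383.2 in those of KO, with a log2 fold change of 0.65 ± 0.22 that did not pass (edgeR adjusted p of 0.999). Nfe2l2, which encodes NRF2, had 528.2 and 514 CPM in the WT libraries and 428 and 630 in those of KO. Slc7a11, the cystine importer, had 308.5 and 397.7 CPM in the WT libraries and 216.2 and 465.3 in those of KO, also with overlap.

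**Figure D5:**
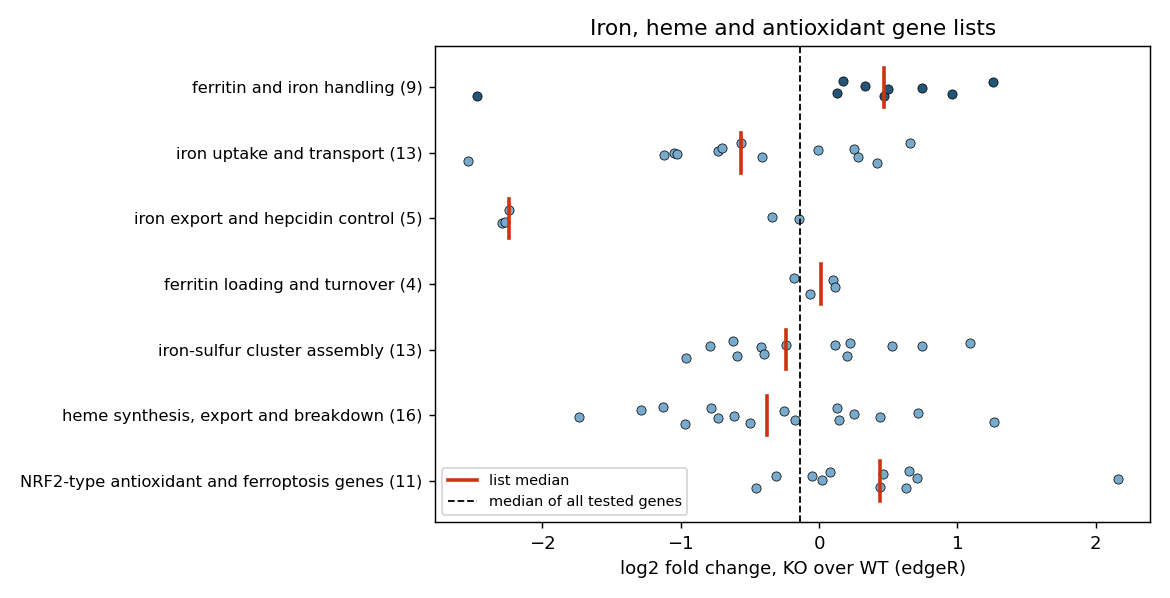
Log2 fold change of KO over WT (edgeR) for each tested gene of the 9 iron genes and of 6 further lists, with the number tested in brackets, red bars for list medians and a dashed line for the median of all tested genes at -0.14. The 9 iron genes have a median of 0.47, Slc40a1 is their 1 negative value, and the export list has 5 negative values of 5.

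Macrophages and red blood cells handle much of the body's iron, so their markers were read beside these values. Of 12 macrophage markers 11 had a row, with a summed level of 192.8 and 343.6 CPM in the WT libraries and 415.9 and 454.6 in those of KO, nearly all of it Hmox1. The other 10 summed to 12.8 and 17.6 CPM in the WT libraries and 30.3 and 11.4 in those of KO. Lyz2 had 3.50 and 4.44 CPM in the WT libraries, with 20.1 for KO replicate 1 and 1.37 for KO replicate 2, and Spic had 4.82 to 9.83 CPM over the 4 libraries. Of these 10, 4 were at 0 in WT replicate 1 and 7 in KO replicate 2, with Adgre1, Mrc1, C1qa and Cd163 at 0 in both. The part of such cells in the iron gene values was not tested. The 6 red blood cell markers with a row summed to 0.599 to 2.99 CPM, led by Alas2, Epb42 and Hbb-bs. In bulk RNA, fewer cells of a type and less RNA per cell cannot be told apart.

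The genes whose values over the 4 libraries ran closest to those of Ftl1-ps1 were found by the Euclidean distance of log2 CPM centred on the WT mean, among 8840 genes at a mean of 5 CPM or more. They were Tmco1, an endoplasmic reticulum calcium channel gene, and Fgf1, a fibroblast growth factor gene, both at a distance of 0.107, then Coq10b (0.164), Mrps17 (0.189) and Shroom3 (0.193). Tmco1 had 13.2 and 13.7 CPM in the WT libraries and 23.9 and 23.2 in those of KO, and Fgf1 had 130.8 and 128.1 CPM in the WT libraries and 215.6 and 213.7 in those of KO. Counting every gene, pseudogenes included, Ftl2-ps ranked 5th, Ftl1 93rd, Tfrc 576th and Fth1 2721st by this distance.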

How the data were processed

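The authors deposited raw read counts for each Ensembl gene, with 1 table for each of the 4 libraries. Per the submitters' processing notes, TopHat2 (2.02) and HTSeq were used with build NCBIM37 (mm9). Annotation release, strandedness, read length and the treatment of multi-mapped reads are not stated there. The 5 summary rows were left out of all totals and fits, and they held 57.59% to 61.52% of lines outside any feature and 0.708% to 0.786% ambiguous ones. Symbols and transcripts came from GENCODE M21 (GRCm38), matched on gene identifiers for 86.9% of rows.

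The test was run in edgeR 4.0.16 under R 4.3.3 (filterByExpr, TMM, quasi-likelihood test, genotype only, Benjamini-Hochberg over 15364 genes). CPM were computed from the counts, and ± after a fold change is its SE. Alternatives were DESeq2 1.42.0, limma 3.58.1 voom, other scalings and filters, a replicate block and each library left out. The procedure was tested on simulated counts. Their spread between libraries was capped below the edgeR common dispersion of these data (0.869), so that test does not cover data this variable. Transcripts were aligned with Biopython 1.88.

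The members, lists and tests were chosen with earlier results of these data known. All 9 members were named; from each further list, the 2 most abundant genes and up to 2 with the smallest unadjusted p under 0.05, the 3 most abundant macrophage and red blood cell markers, and the 5 genes nearest to Ftl1-ps1, passing over predicted genes, Rik clones and pseudogenes. Other genes given, such as Krt5, Ftl2-ps, Gm5475 and markers at 0, were chosen after their values were seen. A gene that this rule names is not reported here.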

Additional observations from a re-analysis of the deposited data

How the results depend on the processing

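The number of called genes was 0 with edgeR under the other scalings and filters and with limma voom, and 4 with the DESeq2 Wald test. With each library left out in turn it ran from 0 to 5724, the highest without KO replicate 1 and 0 without KO replicate 2, and a lone library is assumed there to vary like the other group. With the replicate block 0 genes were called and 79 had an unadjusted p under 0.05. Differences between replicates 1 and 2 had a correlation of 0.006 between the genotypes over 15364 genes, with 2 pairs only. The low detection in KO replicate 2 enters this value, so it cannot decide whether the replicate number marks a pairing. Over 109 alternative values for the 9 genes, 98 kept their direction and stayed short of the threshold, and 6 turned sign: Fth1 at -0.0035 under upper quartile scaling, -0.0237 under total count scaling (added after seeing the data) and -0.20 without KO replicate 2, and Trf at -0.0244 with limma voom, -0.11 without WT replicate 2 and -0.98 without KO replicate 2. With single libraries left out, Fth1 ran from -0.20 to 0.40 and Trf from -0.98 to 1.005. The remaining 5 kept their direction too, and all came from the fit without KO replicate 1, where KO replicate 2 is the only KO library. Log2 fold changes there were 0.79 for Tfrc, -6.14 for Slc40a1, 1.47 for Slc11a2 and 1.89 for Aco1. The last of the 5 was Ftl1-ps1, which is described without a test because its KO values chose it. The cause of these values was not tested. At a mean CPM of 5 or more Slc40a1 was not tested. The summed light chain fits, 1 of them with Ftl2-ps and added after seeing the data, gave 0.70 and 0.71.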
